A study of Mus musculus with 12 samples.

Results

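The neutrophil and monocyte granule genes described here are 10 genes, taken as a list of names with earlier results of these data known: Mpo, Elane, Prtn3, Ctsg, Ms4a3, Cebpe, S100a8, S100a9, Ly6c2 and Fcnb. They are 10 of the 46102 genes in the deposited tables, after numbered copies of a gene were summed, and all 10 had reads. Of these, 8 reached at least 1 RPKM in at least 3 of the 12 libraries and were tested. S100a9 and Fcnb did not, and are given by their values. RPKM is reads per kilobase of transcript, scaled to the library's total reads, so levels of different genes can be set side by side.

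The libraries came from a mouse model of chronic myeloid leukemia (CML). Bone marrow cells were taken from G0 marker mice that had been treated with fluorouracil. They were transduced with a retrovirus carrying human BCR-ABL1, the fusion kinase of CML, together with GFP. The cells were transplanted into lethally irradiated C57BL/6 recipients along with normal bone marrow cells. The G0 marker (G0M) is a fusion of the fluorescent protein mVenus with an inactive p27 protein that accumulates in resting cells, expressed from the Rosa26 locus after Vav1-Cre recombination in blood cells. Each library was made from 100 sorted BCR-ABL1+ CD27+ KSL cells (c-Kit+, Sca-1+, lineage-) of bone marrow and spleen. DP cells were G0M+ and SP cells were G0M- cells from vehicle-treated mice. IMDP and IMSP cells were the G0M+ and G0M- cells from mice that received imatinib once a day by oral gavage. Imatinib blocks the kinase activity of BCR-ABL1. There were 3 libraries in each of the 4 groups. The labels give no age, and the study's reporting summary gives only an age range, for female mice, over all its experiments. The labels do not say whether the 3 libraries of a group came from separate mice, so p-values measure the spread between libraries, which may in part be technical. The depth recovered from the RPKM values was 11.4 to 20.6 M reads a library (M, mega).

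Neutrophil granules are filled in the order in which a developing cell makes their contents. The primary (azurophil) granules are made by promyelocytes and their precursors, and hold myeloperoxidase and the neutrophil serine proteases. The secondary and tertiary granules follow at the myelocyte stage and after it, under the transcription factor C/EBP-epsilon, and S100a8 and S100a9 rise as the cell matures. The primary granule genes are already transcribed in granulocyte-monocyte progenitors, which share a precursor with monocytes. PU.1, C/EBP and RUNX proteins are the best known activators of these genes. The lineage gate of the sort held antibodies to CD11b and Gr-1, which bind maturing neutrophils and monocytes (Gr-1 binds Ly6G and Ly6C), so cells rich in these proteins were sorted out.

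Mpo lies at chr11:87793581-87804413 (GRCm38, GENCODE M21). Prtn3 at chr10:79874476-79883174 and Elane at chr10:79886247-79888215 lie on the same strand with 3072 bases between them. S100a8 at chr3:90668978-90670035 and S100a9 at chr3:90692632-90695721 lie on opposite strands with 22596 bases between them. Cebpe at chr14:54710360-54712174 and Ctsg at chr14:56099881-56102574 share a chromosome. Ms4a3 is at chr19:11629496-11640851, Ly6c2 at chr15:75108158-75111970 and Fcnb at chr2:28076378-28084885. All 10 are protein-coding genes.

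The promoters of the 5 genes that moved most closely together, and that of S100a8 for contrast, are shown because their expression is the subject of the results. Each is the stretch from 250 bases before the RefSeq transcript start to the last base before any transcript start annotated inside that window, 5′ to 3′ on the gene's own strand (RefSeq, GRCm38.p6). Capitals mark matches, on either strand, to a C/EBP motif (TTNNGNAA), a PU.1 motif (GAGGAA) or a RUNX motif (TGTGGT).
Mpo chr11:87793534-87793580 (+ strand): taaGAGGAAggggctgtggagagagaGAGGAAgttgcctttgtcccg
Elane chr10:79886062-79886246 (+ strand): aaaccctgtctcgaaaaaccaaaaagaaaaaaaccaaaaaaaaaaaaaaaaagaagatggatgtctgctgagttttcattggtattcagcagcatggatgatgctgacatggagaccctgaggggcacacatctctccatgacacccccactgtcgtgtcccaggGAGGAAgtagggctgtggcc
Prtn3 chr10:79879417-79879613 (+ strand): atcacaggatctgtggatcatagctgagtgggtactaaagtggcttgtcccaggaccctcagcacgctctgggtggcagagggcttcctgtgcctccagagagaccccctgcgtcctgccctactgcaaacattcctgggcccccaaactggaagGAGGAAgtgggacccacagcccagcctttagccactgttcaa
Ctsg chr14:56102575-56102824 (- strand): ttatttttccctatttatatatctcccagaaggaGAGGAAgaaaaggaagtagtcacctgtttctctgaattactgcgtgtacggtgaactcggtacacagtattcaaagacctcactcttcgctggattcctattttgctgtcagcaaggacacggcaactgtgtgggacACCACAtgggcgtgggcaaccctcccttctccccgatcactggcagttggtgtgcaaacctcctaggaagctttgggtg
Ms4a3 chr19:11640852-11641101 (- strand): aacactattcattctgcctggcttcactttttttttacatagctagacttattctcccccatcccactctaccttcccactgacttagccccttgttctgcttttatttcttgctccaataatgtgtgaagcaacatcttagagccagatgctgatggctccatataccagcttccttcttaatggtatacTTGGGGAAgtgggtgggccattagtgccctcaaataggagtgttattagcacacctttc
S100a8 chr3:90668821-90668977 (+ strand): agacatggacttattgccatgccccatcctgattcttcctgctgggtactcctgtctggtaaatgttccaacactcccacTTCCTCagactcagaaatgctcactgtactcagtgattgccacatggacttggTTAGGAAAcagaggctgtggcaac

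In the whole windows, from 250 bases before to 50 after the start, the PU.1 letters were found for 7 of the 9 members with a window, and in 28.3% of all 32851 windows. The C/EBP letters were found for 5 of the 9 (Ms4a3, S100a8, S100a9, Ly6c2 and Fcnb) against 40.7% of all windows, and the RUNX letters for 3 of the 9 (Ctsg, S100a9 and Ly6c2) against 16.8%. In Elane and Prtn3 the PU.1 match begins 85 and 95 bases before the RefSeq start. Mpo holds 2 such matches, which begin 247 and 224 bases before it. These matches are letters in a window and were not measured as binding sites.

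Levels spanned a wide range between the members. Mpo, the peroxidase that makes hypochlorous acid, was the most abundant, with 37.8 to 1389 RPKM (1508 to 59994 reads). It was the highest of all genes in SP library 2 and lay between rank 1 and rank 405 across the 12 libraries. Ctsg (cathepsin G, 15.1 to 457 RPKM), Elane (neutrophil elastase, 5.97 to 577) and Prtn3 (proteinase 3, 5.19 to 183) are the 3 classical serine proteases of the primary granule. Ms4a3, a membrane protein of granulocyte-monocyte progenitors, had 6.27 to 184 RPKM and Ly6c2, which encodes the Ly6C antigen of monocytes, 1.15 to 131. At the other end, S100a9, Cebpe and Fcnb stayed under 5 RPKM in every library. Together the 10 genes made up between 0.07% and 2.35% of all RPKM in a library.

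The spread between libraries of 1 group was large. Mpo had 766, 37.8 and 139 RPKM in DP libraries 1, 2 and 3, against 508, 1389 and 241 in the SP libraries. It had 117, 40.2 and 167 RPKM in the IMDP libraries, against 1262, 312 and 764 in the IMSP libraries. The DP and SP ranges overlapped, because DP library 1 was above SP libraries 1 and 3, whereas all 3 IMDP libraries were below all 3 IMSP libraries. By the medians, Mpo rose in the order IMDP, DP, SP, IMSP; IMDP overlapped DP, DP overlapped SP and SP overlapped IMSP. The SD of log2(RPKM + 0.1) over the 12 libraries was 1.77 for Mpo, above that of 98.3% of the genes tested, and ranged from 1.61 for Prtn3 to 2.39 for S100a8. RNA of sorted pools does not separate fewer cells carrying a transcript from less transcript in each cell.

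The 3 protease genes and Ms4a3 followed Mpo from library to library. Elane had 271, 5.97 and 41.3 RPKM in DP, 160, 577 and 40.7 in SP, 13, 7.82 and 35.7 in IMDP and 339, 56.8 and 142 in IMSP libraries 1 to 3. Ctsg had 256, 19.8 and 44.6 in DP, 142, 457 and 71.7 in SP, 54.7, 15.1 and 59.6 in IMDP and 444, 101 and 246 in IMSP. DP library 1 and SP library 2 were the highest of their groups for both genes, and IMDP libraries 1 to 3 were all below the IMSP libraries.

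Prtn3 had 113, 5.19 and 22.1 RPKM in DP, 74.7, 183 and 32.2 in SP, 20.7, 10.9 and 28.5 in IMDP and 177, 48.6 and 111 in IMSP. Ms4a3 had 88.8, 6.27 and 14.1 in DP, 56.6, 184 and 34.8 in SP, 11.3, 7.06 and 12.6 in IMDP and 137, 49.3 and 83.3 in IMSP. Both had the same highest and lowest libraries in DP, SP and IMSP as Mpo. Across the 12 libraries, Pearson's r of log2(RPKM + 0.1) between pairs of these 5 genes was 0.962 to 0.992 (10 pairs of genes). Neighbouring library numbers share a level, so the 12 points are not independent.

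**Figure D1:**
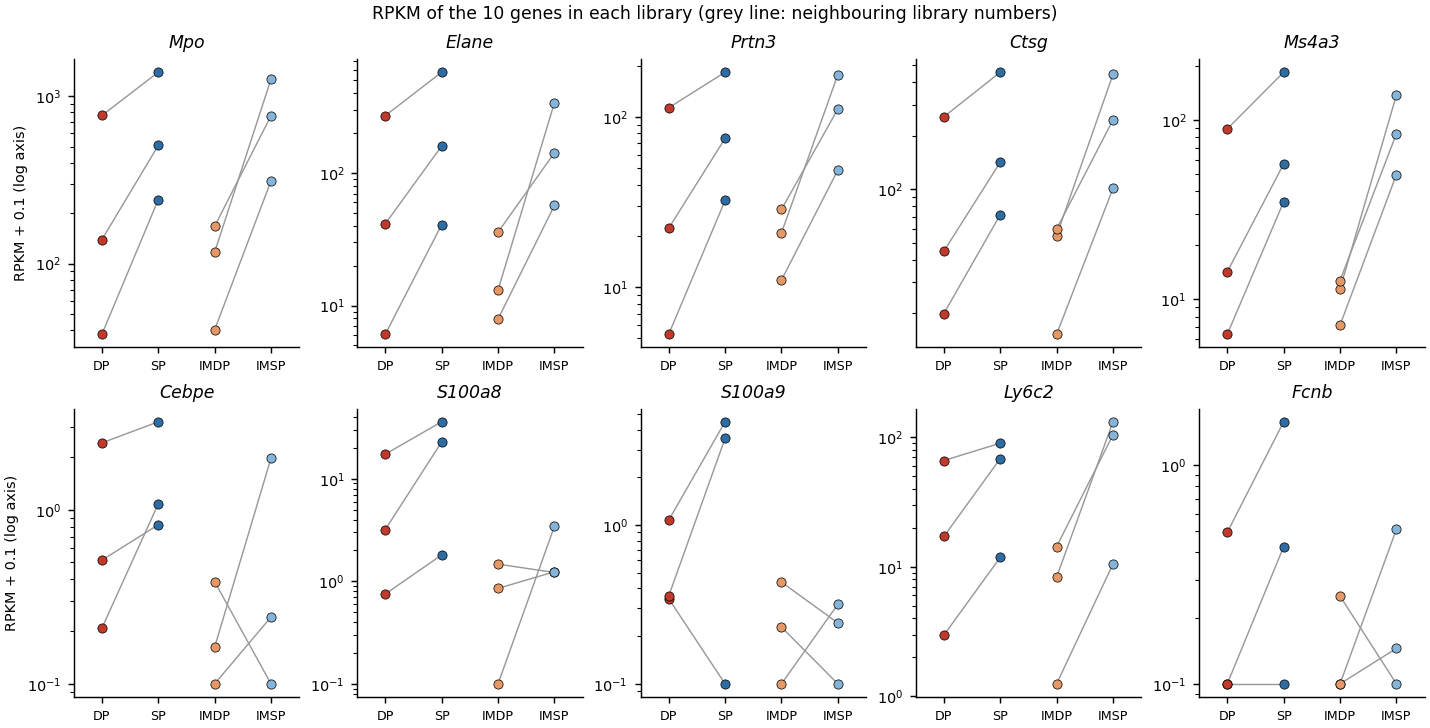
RPKM + 0.1 of the 10 genes on log axes, each with its own range, in the 3 libraries of each group. Each point is a library and grey lines join neighbouring library numbers. In Mpo, Elane, Prtn3, Ctsg, Ms4a3 and Ly6c2 every line runs upward from the G0M+ to the G0M- library.

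Ly6c2 was looser in its relation to the 5 genes (r = 0.883 to 0.938, n = 12). It had 65.8, 2.87 and 17.0 RPKM in DP, 68.1, 89.5 and 11.7 in SP, 14.2, 1.15 and 8.22 in IMDP and 104, 10.4 and 131 in IMSP. IMSP library 2 lay below IMDP library 1, so that the groups overlapped under imatinib as well as under vehicle. Ly6c1, a near-identical neighbour with which Ly6c2 could share reads, had at most 0.209 RPKM in any library.

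S100a8 and S100a9 encode the subunits of calprotectin, the main calcium-binding protein of the neutrophil cytosol. S100a8 had 17.3, 0.652 and 3.10 RPKM in DP, 22.8, 35.9 and 1.71 in SP, 0, 1.37 and 0.753 in IMDP and 3.34, 1.12 and 1.14 in IMSP. DP library 1 and SP libraries 1 and 2 held 106, 184 and 239 reads of it, and no imatinib library more than 23. S100a9 reached 3.43 and 4.39 RPKM in SP libraries 1 and 2, where it had 37 and 39 reads, and was under 1 RPKM in the other 10 libraries, 3 of which had no read. A count of 0 allows up to 3 reads, for counting error only.

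Cebpe encodes C/EBP-epsilon, the factor of late granule genes. It had 2.32, 0.413 and 0.109 RPKM in DP, 0.982, 3.10 and 0.72 in SP, 0.0625, 0 and 0.286 in IMDP and 1.88, 0.142 and 0 in IMSP, with at most 65 reads. Fcnb, the ficolin of neutrophil granules, had 1.48 RPKM (49 reads) in SP library 2, under 0.5 RPKM elsewhere, and no read in 6 libraries. The libraries with the most Mpo in DP, SP and IMSP (DP library 1, SP library 2 and IMSP library 1) were also highest in their groups for Cebpe. Its r with the 5 genes was 0.564 to 0.677, and that of S100a8 was 0.576 to 0.753 (n = 12).

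Under vehicle, none of the 8 tested genes differed between DP and SP cells beyond the spread between libraries. All 8 had lower fitted values in DP, with log2 fold changes from -1.93 to -1.15 (median -1.70, against -0.02 over all 10072 genes tested). Differences were fitted with limma on log2(RPKM + 0.1), which understates those of low genes, and p-values were adjusted by Benjamini-Hochberg over all genes tested. The smallest adjusted p of a member was 0.376, for Ms4a3 (-1.83 ± 0.83, SE). Ms4a3 was the only member with an unadjusted p under 0.05, which 1328 of all 10072 genes had. Of all genes, 1.98% were lower in DP at an adjusted p under 0.05. In limma-voom on recovered reads the count was also 0, and without DP library 1 it was 1. The lower calls over all genes were then 240 and 239. The DP and SP libraries of none of the 10 members were fully separate in this direction, as against 12.7% of the genes tested.

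The library numbers in the sample descriptions run from 1 to 12 and put a G0M+ and a G0M- library of the same treatment next to each other throughout. The labels do not say what neighbours share, but in each of the 6 neighbouring pairs the deviations from the group means correlated across genes, with r between 0.43 and 0.65. With the neighbouring number as a block, Ms4a3, Ctsg, Mpo, Prtn3, Ly6c2 and Elane were lower in DP than in SP cells, 6 of the 8 tested, where 5.56% of all genes were. Ms4a3 fell by 1.83 ± 0.25 (adjusted p = 0.00362), Ctsg by 1.45 ± 0.21 (adjusted p = 0.00471) and Mpo by 1.80 ± 0.30 on the log2 scale (adjusted p = 0.00859). The adjusted p was 0.0136 for Prtn3, 0.019 for Ly6c2 and 0.028 for Elane. S100a8 (-1.72 ± 0.83, adjusted p = 0.216) and Cebpe (-1.15 ± 0.90, adjusted p = 0.44) did not pass. The sizes rested on single libraries. In the fit without a block, leaving out DP library 1 gave -2.93 for Mpo, -3.30 for Elane, -2.81 for Prtn3, -2.48 for Ctsg, -2.91 for Ms4a3 and -2.54 for Ly6c2. Leaving out DP library 2 gave -0.76, -0.56, -0.60, -0.64, -1.01 and -0.31 for the same genes in that order.

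Under imatinib all 8 fitted values were again below 0 (median -2.73). Ms4a3 was 8.19-fold lower in IMDP than in IMSP cells (log2 -3.03 ± 0.83, adjusted p = 0.0214), the only member to pass. Mpo missed the threshold narrowly (-2.86 ± 0.98, adjusted p = 0.0506), as did Ctsg (-2.60 ± 0.94, adjusted p = 0.0601). Prtn3, Ly6c2 and Elane had -2.40, -3.30 and -3.18, with adjusted p from 0.0797 to 0.0815. S100a8 and Cebpe had -1.79 and -0.98. Of all genes 23.3% were called lower in IMDP, and the median of all genes was -0.25, so these values are to be read against a shifted background. With each library scaled to the same median that shift was 0.02, the calls over all genes changed from 239 higher and 2342 lower to 647 higher and 940 lower, and Ms4a3 stayed called (-2.76, adjusted p = 0.0427). In limma-voom on recovered reads no member was called, where 829 of all 10072 genes were called lower.

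The IMDP libraries lay entirely below the IMSP libraries for 5 of the 10 members (Mpo, Elane, Prtn3, Ctsg and Ms4a3), which was so for 32.8% of the genes tested. With the library-number block 6 of 8 were called lower, against 35.9% of all genes. Ms4a3 and Ctsg then had an adjusted p of 0.000118 each, Ly6c2 0.000152 and Mpo 0.000237. The number called without a block changed with single libraries, as did that over all genes. It was 0 without IMDP library 2 or IMSP library 1, 5 without DP library 1 or DP library 2, 4 without IMSP library 2 and 3 without SP library 2. The lower calls over all 10072 genes went from 2342 to 1092 without IMDP library 2 and 852 without IMSP library 1. They were 2322 without DP library 1, 2085 without DP library 2, 2032 without IMSP library 2 and 2279 without SP library 2. The block with median scaling, added after the data were seen, also gave 6 calls in each treatment.

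Averaged over both treatments, 4 genes were lower in G0M+ than in G0M- cells. Ms4a3 was 5.40-fold lower (-2.43 ± 0.59, adjusted p = 0.0122), Mpo 5.03-fold (-2.33 ± 0.69, adjusted p = 0.0299), Prtn3 4.12-fold (-2.04 ± 0.67, adjusted p = 0.0417) and Ctsg 4.07-fold (-2.03 ± 0.66, adjusted p = 0.0418). Elane had -2.55 ± 0.89 (adjusted p = 0.0523) and Ly6c2 -2.39 ± 0.92 (adjusted p = 0.0722). In this comparison 21% of all genes were called lower and the median of all genes was -0.13. Median scaling changed the calls over all genes from 536 higher and 2112 lower to 1131 higher and 1248 lower, and left Ms4a3 and Mpo called. The count of members fell to 1 without any of DP libraries 2 and 3, SP libraries 1 and 2, IMDP library 2 and IMSP libraries 1 and 3, and to 2 without IMDP library 3. The lower calls over all genes then ran from 1307 to 2058, against 2112 with all libraries.

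Within each of the 6 neighbouring pairs the G0M+ library was lower for Mpo, Elane, Prtn3, Ctsg, Ms4a3 and Ly6c2, a property of 24.9% of the genes tested. Mpo was 1.81-fold lower in the pair of DP library 1 and SP library 2, the smallest difference, and 10.8-fold lower in the pair of IMDP library 1 and IMSP library 1, the largest. The same 2 pairs bounded the ratios of Elane (2.13 to 26.1), Prtn3 (1.62 to 8.55), Ctsg (1.79 to 8.12) and Ms4a3 (2.07 to 12.2). For Ly6c2 the ratios ran from 1.36 in the pair of DP library 1 to 15.9 in the pair of IMDP library 3. Cebpe and S100a8 were lower in the G0M+ library of 5 pairs. S100a9 was lower in 3 and higher in 3, and Fcnb lower in 4, higher in 1 and at 0 in both libraries of the last.

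**Figure D2:**
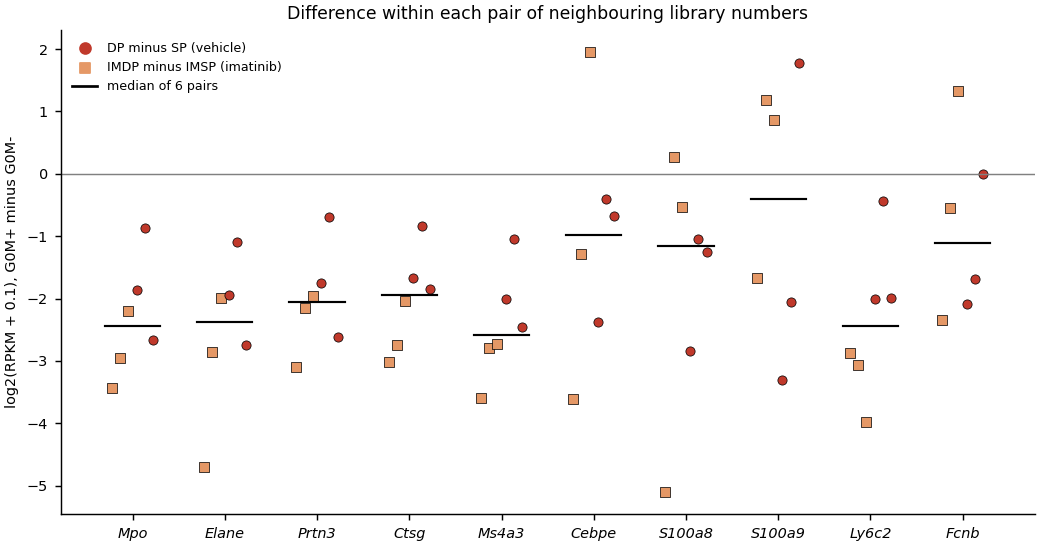
Difference of log2(RPKM + 0.1) between the G0M+ and the G0M- library of each neighbouring pair, for the 10 genes. Circles are vehicle and squares imatinib pairs and black lines the median of the 6 pairs. The 6 points of Mpo, Elane, Prtn3, Ctsg, Ms4a3 and Ly6c2 all lie below 0.

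With the block, 7 of the 8 tested genes were called lower in G0M+ cells averaged over treatments, against 33.4% of all genes. The adjusted p ranged from 3.23e-05 for Ms4a3 to 0.000324 for Elane among the 6 genes above, and the 7th was S100a8 (-1.75 ± 0.59, adjusted p = 0.0351). Cebpe (-1.06 ± 0.64, adjusted p = 0.197) did not pass. In the test of whether the population difference itself changed with treatment, the interaction called no member in limma (0.0% of all genes) and none in limma-voom. No member had an unadjusted p under 0.05 in limma, against 937 of all 10072 genes. With the block the interaction called none either. An unadjusted p under 0.05 was then found for 4 members and for 2215 of all 10072 genes. The blocked values were -1.83 ± 0.43 for Ly6c2 and -1.15 ± 0.30 for Ctsg (adjusted p = 0.117 each).

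No member passed the test between imatinib and vehicle in either population. Between IMDP and DP cells limma called 0 of 8 (0.367% of all genes in either direction), with none at an unadjusted p under 0.05 and none in limma-voom. Over all 10072 genes 2061 had such an unadjusted p in limma. The fitted values ran from -2.79 for S100a8 to -0.34 for Prtn3. The IMDP and DP values of every member overlapped, and the share of all genes that did so was not counted. Between IMSP and SP cells limma again called 0 of 8 (0.0% of all genes), with none at an unadjusted p under 0.05 and none in limma-voom. Over all genes 845 had such an unadjusted p in limma. Mpo, Prtn3, Ctsg, Ms4a3 and Ly6c2 had values between 0.21 and 0.42 there, Elane -0.15, Cebpe -1.96 and S100a8 -2.72. Both comparisons set library numbers 1 to 6 (imatinib) against 7 to 12 (vehicle), so that treatment and library number cannot be told apart and no block could be fitted.

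Averaged over populations, 0 members were called (0.854% of all genes, 25 higher and 61 lower; 66 and 96 after median scaling), and none in limma-voom. Of the members, only S100a8 and Cebpe had an unadjusted p under 0.05, as did 1811 of all 10072 genes. S100a8 had -2.76 ± 0.94 (adjusted p = 0.155), and its value stayed between -3.42 and -1.97 in all alternatives. Cebpe had -1.88 ± 0.82 (adjusted p = 0.262). For Mpo the value was -0.26 ± 0.69 and for Prtn3 0.01 ± 0.67.

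**Figure D3:**
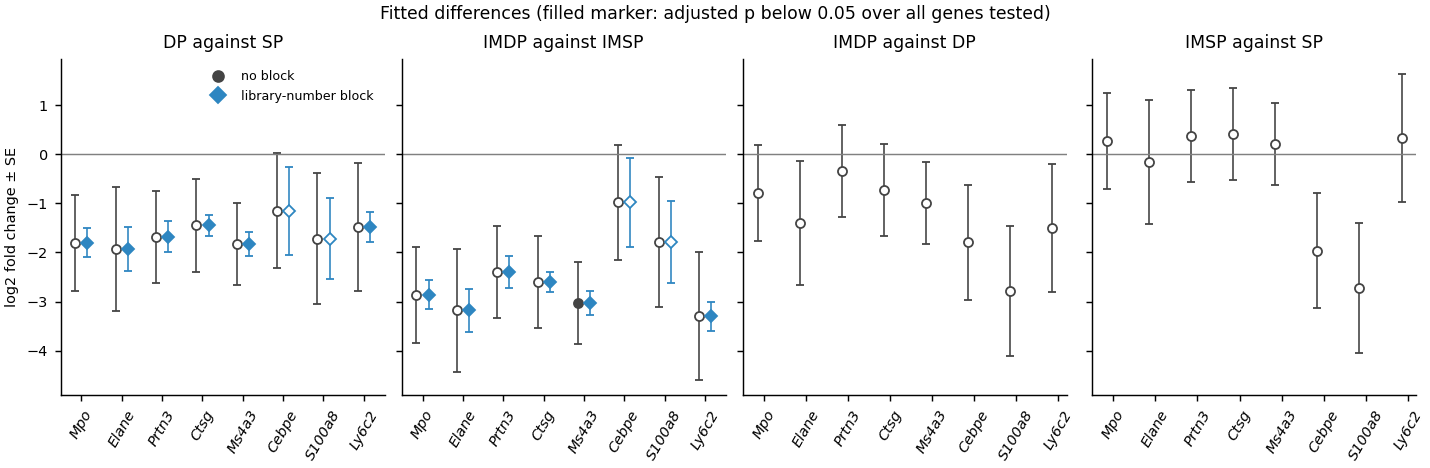
Fitted log2 fold change ± SE of the 8 tested genes in 4 comparisons, without a block (circles) and with the library-number block (diamonds, only within a treatment). Filled markers passed an adjusted p of 0.05 over all genes tested. Ms4a3 in IMDP against IMSP is the only filled circle.

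The proportions between the primary granule genes are given next. Prtn3 stood at 13.2% to 15.9% of Mpo in the 6 vehicle libraries and at 14% to 27.0% in the 6 imatinib libraries, and Ctsg at 27.9% to 52.4% and 32.2% to 46.9%. Ms4a3 ranged from 7.55% to 17.6% of Mpo over all 12. Elane had a median of 30.6% of Mpo (15.8% to 41.5%) in vehicle and 19.0% (11.1% to 26.8%) in imatinib libraries. S100a8 had a median of 2.24% of Mpo (0.708% to 4.49%) in vehicle and 0.312% (0% to 3.42%) in imatinib libraries. The highest imatinib value was that of IMDP library 2, which had 8 reads of S100a8 and the lowest Mpo of the imatinib libraries. These proportions are descriptions, and were not tested.

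**Figure D4:**
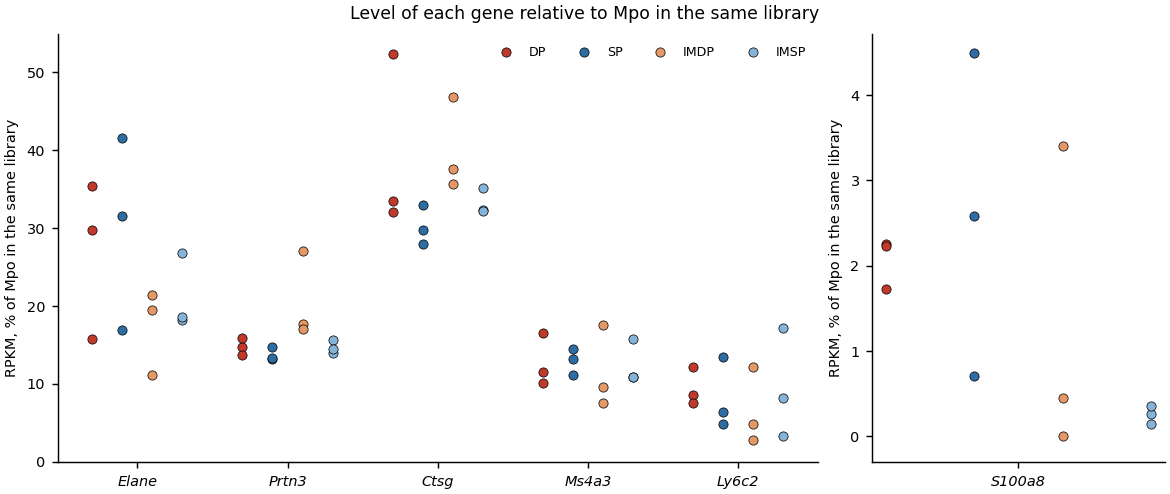
RPKM of 6 genes as a percent of Mpo in the same library, for the 3 libraries of each group. S100a8, in the panel with its own axis, spans 0% to 3.42% in IMDP and 0.149% to 0.36% in IMSP libraries. It spans 1.72% to 2.25% in DP and 0.708% to 4.49% in SP libraries. No imatinib library had more than 23 reads of S100a8.

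Of 9 other genes tied to the primary granule, all tested, 2 were lower in IMDP than in IMSP cells. These were Cst7, the inhibitor cystatin F (-2.36 ± 0.80, adjusted p = 0.0473), and Gusb, the lysosomal enzyme beta-glucuronidase (-0.81 ± 0.22, adjusted p = 0.02). Prss57, a serine protease of the same granule, was 2.68-fold lower in G0M+ cells averaged over treatments (adjusted p = 0.0435), and with Gusb made 2 calls there. With the block 4 were lower in each of these comparisons, Serpinb1a, an inhibitor of elastase, being the 4th, and 1, Prss57, in DP against SP. Over all 10072 genes the lower calls were 2342 in IMDP against IMSP and 2112 in the average. With the block they were 3618 and 3368, and 560 in DP against SP. The counts of the lists below are to be read against the same numbers. The most abundant partners, Cd63 (12.1 to 85.3 RPKM), Srgn (28.8 to 89.1) and Lyz2 (13.7 to 51.3), were called in none. The list median averaged over treatments was -0.14, against -0.13 for all genes.

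The genes of the later granules were mostly near 0. Of 19 secondary and tertiary granule genes, Olfm4 was at 0 in all 12 libraries and 9 passed the filter. Ltf (lactoferrin) had at most 0.862 RPKM, Camp at most 0.295, Ngp at most 0.245 and Mmp9 at most 0.131. Hp (haptoglobin) was the exception, at 0.855 to 13.3 RPKM in DP, 4.36 to 31.0 in SP, 0.30 to 2.81 in IMDP and 10.1 to 37.1 in IMSP libraries. It was 18.45-fold lower in IMDP than in IMSP (adjusted p = 0.0118), and 8.01-fold lower in G0M+ cells averaged over treatments (adjusted p = 0.0103). Lcn2 (lipocalin 2) was 3.82-fold lower in that average (adjusted p = 0.0423). With the block, the lower calls were 2 in DP against SP, 6 in IMDP against IMSP and 5 in the average, while Padi4, which citrullinates histones, was higher in all 3 comparisons (0.84 ± 0.17 in the average, adjusted p = 0.00361). With Hp, the most abundant were Cyba, at 16.3 to 42.1 RPKM and called in none, and Ncf1, which was lower in the blocked average (-0.70 ± 0.08, adjusted p = 0.000237).

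Among 14 neutrophil surface receptor genes, 10 were tested. Clec4d was lower in IMDP than in IMSP cells (-2.12 ± 0.64, adjusted p = 0.0314), and in the average Clec4d was lower and the integrin beta chain Itgb2 higher (0.77 ± 0.22, adjusted p = 0.0248). Clec4d passed the filter through G0M- libraries alone, so its tests could hardly have turned out higher in G0M+ cells. With the block Cxcr4 and Trem1 were also lower in IMDP cells, by 1.11 ± 0.16 and 1.40 ± 0.28 on the log2 scale (adjusted p = 0.000928 and 0.00396). In DP against SP the block gave 1 lower (Trem1) and 1 higher call (Itgb2). Cxcr4 had 7.31 to 37.3 RPKM and Csf3r, the receptor of granulocyte colony-stimulating factor, 3.65 to 17.5. The genes of the antigens in the lineage gate differed in level. Itgam (CD11b) had at most 3.08 RPKM and Ly6g at most 0.365, whereas Ly6c2 (Ly6C) had 1.15 to 131.

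Of 18 monocyte genes, 15 were tested. In the average over treatments Ccl6, a chemokine (0.74 to 88.0 RPKM in G0M+ and 0.184 to 0.775 in G0M- libraries, adjusted p = 0.00812), and Lgals3, galectin-3 (2.49 ± 0.57, adjusted p = 0.00935), were higher in G0M+ cells. Lgals3 was also called in DP against SP (adjusted p = 0.0475). Ccl6 passed the filter through G0M+ libraries alone, so its test could hardly have turned out lower. In IMDP against IMSP Ccr2, the chemokine receptor of monocytes, was lower (-2.90 ± 0.98, adjusted p = 0.0476), and with the block F13a1, Irf8, Ms4a6c and Ly86 joined it, with 5 lower and 1 higher call. In the blocked average 4 were lower, namely F13a1 (-1.83 ± 0.37, adjusted p = 0.00389), Irf8 (-1.08 ± 0.29, adjusted p = 0.0145), Ccr2 (-1.66 ± 0.45, adjusted p = 0.0151) and Fn1 (-0.74 ± 0.24, adjusted p = 0.0305), and 3 were higher (Ccl6, Lgals3 and S100a4), the same 3 as in blocked DP against SP. IMSP held an uneven library. IMSP library 3 had 68.5 RPKM of F13a1, 23.9 of Ccr2, 28.7 of Csf1r and 24.8 of Ly86, where the other IMSP libraries had at most 9.01, 7.10, 6.13 and 5.14. The summed level of the list was 55.2 to 237 RPKM in IMSP, 21 to 56.5 in SP, 42.6 to 144 in DP and 55.6 to 103 in IMDP, and its part in the levels of Ly6c2 was not tested. Ly6c2 itself was highest in the same library, at 131 RPKM.

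Of 17 transcription factor genes of the granulocyte and monocyte lineages, 16 were tested. Cebpa, which encodes the factor that starts granulocyte differentiation, was 3.57-fold lower in IMDP than in IMSP cells (adjusted p = 0.0495) and 2.66-fold lower in the average (adjusted p = 0.036). Cebpb (-1.07 ± 0.34, adjusted p = 0.0399) and Cbfb, the partner of RUNX proteins (-0.63 ± 0.15, adjusted p = 0.0142), were lower in IMDP against IMSP. Id2, an inhibitor of helix-loop-helix factors, was higher in DP than in SP cells (1.85 ± 0.41, adjusted p = 0.033) and in the average (1.46 ± 0.29, adjusted p = 0.00497). With the block Spi1, which encodes PU.1 (-0.54 ± 0.09, adjusted p = 0.00132), and Gfi1, a repressor needed by neutrophils (1.99-fold, adjusted p = 0.00585), were lower in the average, in all 6 lower and 5 higher calls. Blocked calls were 1 lower and 2 higher in DP against SP and 7 lower and 3 higher in IMDP against IMSP. Over all 10072 genes the block called 560 lower and 420 higher in DP against SP. In IMDP against IMSP it called 3618 lower and 828 higher. Runx1 (14 to 22.3 RPKM) and Myb (32.2 to 62.7) were called in none of these comparisons.

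Of 13 other S100 genes, 7 were tested. S100a6 was 3.74-fold higher in IMDP than in IMSP cells (adjusted p = 0.0153) and 2.55-fold higher in the average (adjusted p = 0.014), where S100pbp, a binding partner of S100 proteins rather than a family member, was also higher (0.48 ± 0.14, adjusted p = 0.0317). With the block S100a4, S100a6 and S100a10 were higher in DP than in SP cells, and 4 of 7 were higher in the average. S100a10 (14.5 to 29.6 RPKM) and S100a11 (13.9 to 41.3) were the most abundant. Among the 16 other Ly6 and Ms4a genes, 5 were tested, and Ly6a, which encodes the Sca-1 used in the sort, was higher in IMDP than in IMSP (1.56 ± 0.40, adjusted p = 0.017) and in the average (1.42 ± 0.28, adjusted p = 0.00544). Ly6e, the most abundant of them with 37.4 to 96.1 RPKM, was lower with the block in IMDP (-0.62 ± 0.09, adjusted p = 0.000979).

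Ctsg belongs to a cluster of protease genes on chromosome 14, of which 14 others were listed. Of these, 9 had reads and 3 were tested. Mcpt8, a basophil protease, had 110, 19.9 and 31.8 RPKM in DP and 3.37, 8.73 and 4.88 in SP libraries, and was 4.11-fold higher in G0M+ cells averaged over treatments (adjusted p = 0.0198). Cma1, a mast cell chymase, had 14.3, 28.5 and 5.46 RPKM in DP and no read in any SP library (adjusted p = 0.0293 for DP against SP, adjusted p = 0.00625 in the average). It passed the filter through G0M+ libraries alone, so its test could hardly have turned out lower in G0M+ cells. Under imatinib Cma1 was 25.6 RPKM in IMDP library 1, 0.247 and 0 in the other two, and 0 in IMSP. Gzmb (granzyme B) had 14.6 to 91.3 RPKM in DP and 5.32 to 36.6 in SP libraries, and was called in the blocked average (1.70 ± 0.45, adjusted p = 0.0128).

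**Figure D5:**
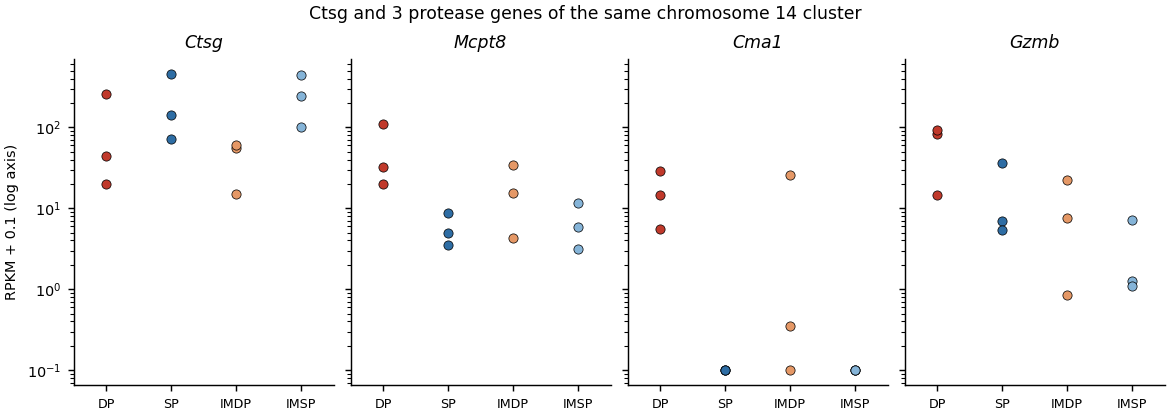
RPKM + 0.1 on a shared log axis of Ctsg, Mcpt8, Cma1 and Gzmb in the 3 libraries of each group. The SP libraries of Cma1 lie at the floor of 0.1 (no read), whereas those of Ctsg reach 457 RPKM.

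Mast cell and basophil, macrophage and some erythroid markers were higher in the G0M+ populations, and their part in the levels of the members was not tested. Mast cell and basophil markers summed to 97.9 to 352 RPKM in DP and 27.6 to 212 in IMDP, against 24.4 to 29.6 in SP and 19.4 to 32.2 in IMSP libraries, highest in DP library 1 and IMDP library 1. Of 13 such genes 9 were tested and 5 were higher in the average (Prss34, Cma1, Il4, Mcpt8 and Fcer1a, and 9 genes with the block), while Tpsab1 was at 0. Prss34 and Cma1 passed the filter through G0M+ libraries alone, so their tests could hardly have turned out lower. Erythroid markers summed to 279 to 334 RPKM in DP, 135 to 217 in SP, 96.7 to 556 in IMDP and 38.0 to 172 in IMSP, with Hbb-bt called higher in the average (adjusted p = 0.019). With the block 5 erythroid genes were higher in the average and Tfrc, the transferrin receptor, was lower (-1.01 ± 0.14, adjusted p = 0.000723). Macrophage markers were low, at 2.55 to 11.6, 1.44 to 2.17, 8.87 to 11.2 and 1.34 to 3.15 RPKM in the same order, and C1qc, Vcam1 and Adgre1 were higher in the average, with Timd4 at 0. C1qc too passed the filter through G0M+ libraries alone. Eosinophil markers stayed at or under 2.79 RPKM in sum and only Siglecf was tested, called in no unblocked comparison and lower with the block in the average (adjusted p = 0.0152). Lymphoid markers ranged from 30.2 to 267 RPKM in sum, almost all of it Nkg7, a granule protein of cytotoxic lymphocytes (25.1 to 265 RPKM), with 3 of 13 tested and Ebf1 at 0. With the block Nkg7 was lower in the average (-0.55 ± 0.18, adjusted p = 0.0306) and Dntt higher (adjusted p = 0.0425), and Dntt was called higher with imatinib (adjusted p = 0.0497).

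Mki67, a marker of cycling cells that was not part of the sort, had 10.9 to 21.2 RPKM in DP, 50.8 to 57.7 in SP, 7.18 to 10.1 in IMDP and 54.5 to 70.6 in IMSP, and was 5.35-fold lower in G0M+ cells averaged over treatments (adjusted p = 6.12e-06). Of the genes of the sort, Kit (16.8 to 39.8 RPKM) and Cd27 (12.2 to 21.4) were present throughout, as was the pan-leukocyte gene Ptprc (11.5 to 18.8). All G0M+ libraries were below all G0M- libraries for Mki67.

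The genes most like the mean of the 8 tested members over the 12 libraries, by Pearson's r of log2(RPKM + 0.1), were C3 (r = 0.981), Trem3 (0.979), Txndc11 (0.958), Anxa3 (0.955), Gpr141 (0.953), Ap3s1 (0.952), Cldn15 (0.952), Smn1 (0.952), Dnajc15 (0.951) and Ero1lb (0.95). Those most like Mpo were Anxa3 (0.982), Clec12a (0.981), Nin (0.973), Tm7sf3 (0.97) and Atp8b4 (0.969). Those most like S100a8 were Abca13 (0.946), Pik3cb (0.93), Scfd2 (0.898), Cyb561d2 (0.893) and Pigo (0.886). Their rank correlation (Spearman's rho) with S100a8 ran from 0.497 for Cyb561d2 to 0.93 for Pik3cb, and S100a8 had at most 23 reads in an imatinib library. Anxa3 had 1.80 to 45.0 RPKM and Clec12a 0.501 to 20.6. The highest of these lists come from a search over all tested genes and share the same libraries.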

How the data were processed

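RNA-seq was performed on 12 libraries of 100 sorted cells. Per the study's methods, reads were mapped to GRCm38/mm10 with CLC Genomics Workbench, whereas its reporting summary names HISAT2 and featureCounts; the authors deposited 1 RPKM value per feature and library, and whether a further normalization was applied is not given in the sources used here. All 48737 features listed were read and numbered copies of a gene were summed. Low RPKM values are whole multiples of 1 read, and whole reads were recovered for 99.99% of the features above 0 (tolerance 0.02 reads). They gave the depth of 11.4 to 20.6 M reads and the read counts, which cover counting error only.

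The 10072 genes that reached 1 RPKM in 3 or more libraries were tested. limma 3.58.1 (R 4.3.3) was run on log2(RPKM + 0.1), with group-specific means (4 groups) and a variance trend. Tests were two-sided, p-values were adjusted by Benjamini-Hochberg over all genes tested in each of 7 contrasts, and a gene was called at an adjusted p under 0.05. Scripts were tested on simulated reads. Neighbouring library numbers (sample descriptions) were taken as a block where both populations of a treatment were compared, since the deviations from the group means correlated in all 6 pairs (r = 0.43 to 0.65). The replicate numbers of the titles did not pair the vehicle libraries (r = -0.30 to -0.10).

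All 10 members are given by their values in every library, and the 8 tested members entered every fit. From 14 companion and marker lists, genes called in any comparison (at most 5 a list and comparison, by adjusted p) and the 3 with the highest mean RPKM were eligible for naming; others were named after their values were seen, and 1 gene of the receptor list is not reported here. The members and lists were chosen with earlier results of these data known. Alternatives were pseudocounts of 1 and 0.01, no filter, a mean of at least 5 RPKM, only the groups compared, both blocks, median scaling, limma-voom on recovered reads, copies kept apart and each library left out; the block with median scaling was added after the data were seen. Promoter windows are from RefSeq.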

Additional observations from a re-analysis of the deposited data

How the results depend on the processing

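In DP against SP, the number of members called was 0, and 6 with the library-number block (6 with median scaling added). Leaving out each library in turn gave 0 to 1. Over all 10072 genes the lower calls there were 199, 560 with that block and 712 with median scaling added. They ran from 110 to 239 with 1 library left out. In IMDP against IMSP it was 1, and 2 with a pseudocount of 1, 3 with a mean of at least 5 RPKM, 5 with only the groups compared, 4 with the replicate block, 6 with the library-number block (6 with median scaling added) and 0 in limma-voom on recovered reads. Leaving out each library gave 0 to 5. Over all genes the lower calls there were 2342, and 2349, 2035 of 4692 genes tested, 1398, 2558, 3618 (1987) and 829 in the same order. They ran from 852 to 2800 with 1 library left out. In the average over treatments it was 4, and among the alternatives 1 without a filter, 2 with median scaling, 2 in limma-voom, 5 with the replicate block and 7 with the library-number block. Leaving out each library gave 1 to 6. Over all genes the lower calls there were 2112, and 1766 of 16775 genes tested, 1248, 1246, 2315 and 3368 in the same order. They ran from 1307 to 2612 with 1 library left out. Over all 7 contrasts, a mean of at least 5 RPKM added 3 calls of members and removed none. No alternative called a member in the contrasts of treatment or in the interaction. The cause of these changes was not tested.

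No called member changed sign. Fold changes that did not pass the test turned sign as follows. In the interaction that of S100a8 (-0.07) was 0.67 with a pseudocount of 1, 0.16 with median scaling, 0.28 in limma-voom and 0.16 with both block and median scaling, and Prtn3 averaged over populations (0.01) was -0.00 with a pseudocount of 1. The others turned when a library was left out, with these ranges. In IMDP against IMSP, Cebpe ran from -1.91 to 0.25. In IMDP against DP, Mpo ran from -1.82 to 0.34, Prtn3 from -1.42 to 0.79, Ctsg from -1.54 to 0.30 and Ms4a3 from -1.81 to 0.09. In IMSP against SP, Mpo ran from -0.33 to 0.94, Elane from -1.12 to 0.79, Prtn3 from -0.25 to 1.01, Ctsg from -0.19 to 1.14, Ms4a3 from -0.30 to 0.90 and Ly6c2 from -0.58 to 1.49. With imatinib averaged over populations, Mpo ran from -0.77 to 0.31, Prtn3 from -0.53 to 0.58, Ctsg from -0.56 to 0.36 and Ms4a3 from -0.80 to 0.15. In the interaction, Mpo ran from -2.10 to 0.07, Elane from -2.62 to 0.12, Prtn3 from -1.80 to 0.41, Cebpe from -0.76 to 1.39 and S100a8 from -1.17 to 1.26.

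Depth limits S100a9, Fcnb and Cebpe, which had at most 39, 49 and 65 reads in a library, and S100a8 in the imatinib libraries, which had at most 23. Each library held 100 cells, so the number of cells also limits precision.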
